A study of Mus musculus with 6 samples.

Results

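The genes described here copy DNA in S phase or drive the step from G1 into S. A list of 49 such genes was looked up among 19938 genes measured on arrays in cells from mouse spleen, and all 49 had a probe set that names 1 gene. A gene with several probe sets was read from its brightest one, judged by the mean of the 6 arrays. The cells came from B6D2F1/J mice that had been lethally irradiated and given B6 marrow depleted of T cells, with or without spleen cells of B6 donors, and the labels do not say which mice received spleen cells. The recipients were injected intraperitoneally on alternate days with rapamycin (1.5 mg/kg), an inhibitor of the growth kinase mTOR, or with PBS. On day 10 after the transplantation, spleen cells bound by CD11b magnetic beads were collected and labelled MDSCs (suppressor cells of myeloid origin, an immature population that restrains T cells). Each group held 3 mice with 1 array each, and their number limits the precision of every value. The mice's ages are not given in the sources used here.

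Before S phase, the origin recognition complex with Cdc6 and Cdt1 loads the ring of Mcm2 to Mcm7 onto DNA, and Cdc45 and the GINS proteins turn that ring into the working helicase. Primase and polymerase alpha start new strands, the clamp PCNA, placed by the RFC complex, holds the other polymerases on DNA, and nucleotides are made by enzymes such as ribonucleotide reductase. D-type and E-type cyclins release E2F factors from the retinoblastoma protein, and E2F sites lie in the promoters of many of these genes. In myeloid cells the programme runs in progenitors and is shut off as neutrophils mature.

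The common words of an E2F site, TTTCCCGC, TTTGGCGC, TTTCGCGC and TTTGCCGC, were searched on both strands in windows around gene starts in RefSeq (build GRCm38.p6). A window ran from 250 bases before to 50 after a start, and a gene can have several. Such windows were held for 40 of the 49 members, and 15 of their 48 windows (31.2%) had a match, against 2.26% of all 32851 windows. Of the 14 matched members that were bright enough to test, 4 fell with rapamycin (E2f2, Mcm3, Mcm5 and Pole2), and their median log2 change was -0.11. Of all genes tested 6.92% were called lower, and their median was -0.017. Of the 25 tested members whose windows held no match, 6 fell, with a median of -0.14. The windows of the 4 that fell are shown in the sense of the gene, because they place the site by which the family is known next to the values below. They lie at chr4:136172024-136172323 (plus strand), chr1:20820263-20820562 (minus strand), chr8:75109259-75109558 (plus strand) and chr12:69228141-69228440 (minus strand) for E2f2, Mcm3, Mcm5 and Pole2. Capitals mark the matches on either strand, which in Mcm5 are 2 that overlap. The start on which each window was built is base 251, which is the outer gene boundary in RefSeq for E2f2 and Mcm3. For Mcm5 and Pole2 that boundary (75109468 and 69228205) lies in the window before base 251.
E2f2: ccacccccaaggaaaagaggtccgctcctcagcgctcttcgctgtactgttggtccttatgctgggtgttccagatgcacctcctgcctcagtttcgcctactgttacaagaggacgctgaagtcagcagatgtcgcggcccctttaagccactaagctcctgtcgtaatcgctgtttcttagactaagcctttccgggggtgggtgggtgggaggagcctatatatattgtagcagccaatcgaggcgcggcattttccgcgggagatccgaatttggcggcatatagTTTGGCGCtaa
Mcm3: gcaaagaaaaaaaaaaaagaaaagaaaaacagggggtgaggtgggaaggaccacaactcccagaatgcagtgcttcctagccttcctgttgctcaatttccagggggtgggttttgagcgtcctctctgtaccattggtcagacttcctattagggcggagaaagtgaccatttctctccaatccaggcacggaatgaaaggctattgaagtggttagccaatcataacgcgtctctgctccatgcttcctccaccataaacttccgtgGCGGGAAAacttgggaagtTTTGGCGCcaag
Mcm5: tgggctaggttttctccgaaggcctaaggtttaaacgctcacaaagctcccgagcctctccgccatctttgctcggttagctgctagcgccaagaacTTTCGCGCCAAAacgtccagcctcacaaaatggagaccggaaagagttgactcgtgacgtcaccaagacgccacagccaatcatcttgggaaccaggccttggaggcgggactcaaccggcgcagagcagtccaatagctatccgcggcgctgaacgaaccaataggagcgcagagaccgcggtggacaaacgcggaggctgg
Pole2: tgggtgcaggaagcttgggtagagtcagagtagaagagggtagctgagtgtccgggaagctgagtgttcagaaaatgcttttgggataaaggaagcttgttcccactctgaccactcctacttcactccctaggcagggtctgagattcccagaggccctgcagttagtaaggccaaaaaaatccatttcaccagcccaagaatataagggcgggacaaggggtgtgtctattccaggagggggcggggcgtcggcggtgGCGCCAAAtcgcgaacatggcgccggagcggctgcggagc
In E2f2, Mcm3 and Pole2 the matches lie just after the gene start, and in Mcm5 they lie upstream. A match is a likeness of letters and does not show that E2F binds there.

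Most of the listed members were a little lower in the cells of rapamycin-treated mice, though most were not called. Of the 48 members bright enough to test, 10 fell and 1, the cyclin Ccnd2, rose at an adjusted p under 0.05 (limma, adjusted over all 13965 genes tested). The 10 were Chaf1a, E2f2, Prim1, Slbp, Pole2, Rrm2, Mcm3, Dut, Rpa2 and Mcm5, and they make up 20.8% of the members tested. Over all genes tested 6.92% were called lower and 4.42% higher. The other 37 members tested were not called. A separate list of 50 tested replication genes, described below, had a median log2 change of -0.048. The members were chosen with earlier results of these data known, and the contrast of these shares was not tested. The median log2 change (rapamycin minus PBS) was -0.10 over the members and -0.017 over all genes tested, and 35 of 48 members (72.9%) had a value below 0, against 55.6% of all genes. All 3 rapamycin arrays lay below all 3 PBS arrays for 24 members (50%) and above them for 4 (8.33%), where all genes gave 19.4% and 12.6%. The changes were small: no member reached 1.5-fold, and those called lower had a median log2 change of -0.30, beside -0.32 for all genes called lower. In bulk samples fewer dividing cells and less of these RNAs per cell cannot be told apart.

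**Figure D1:**
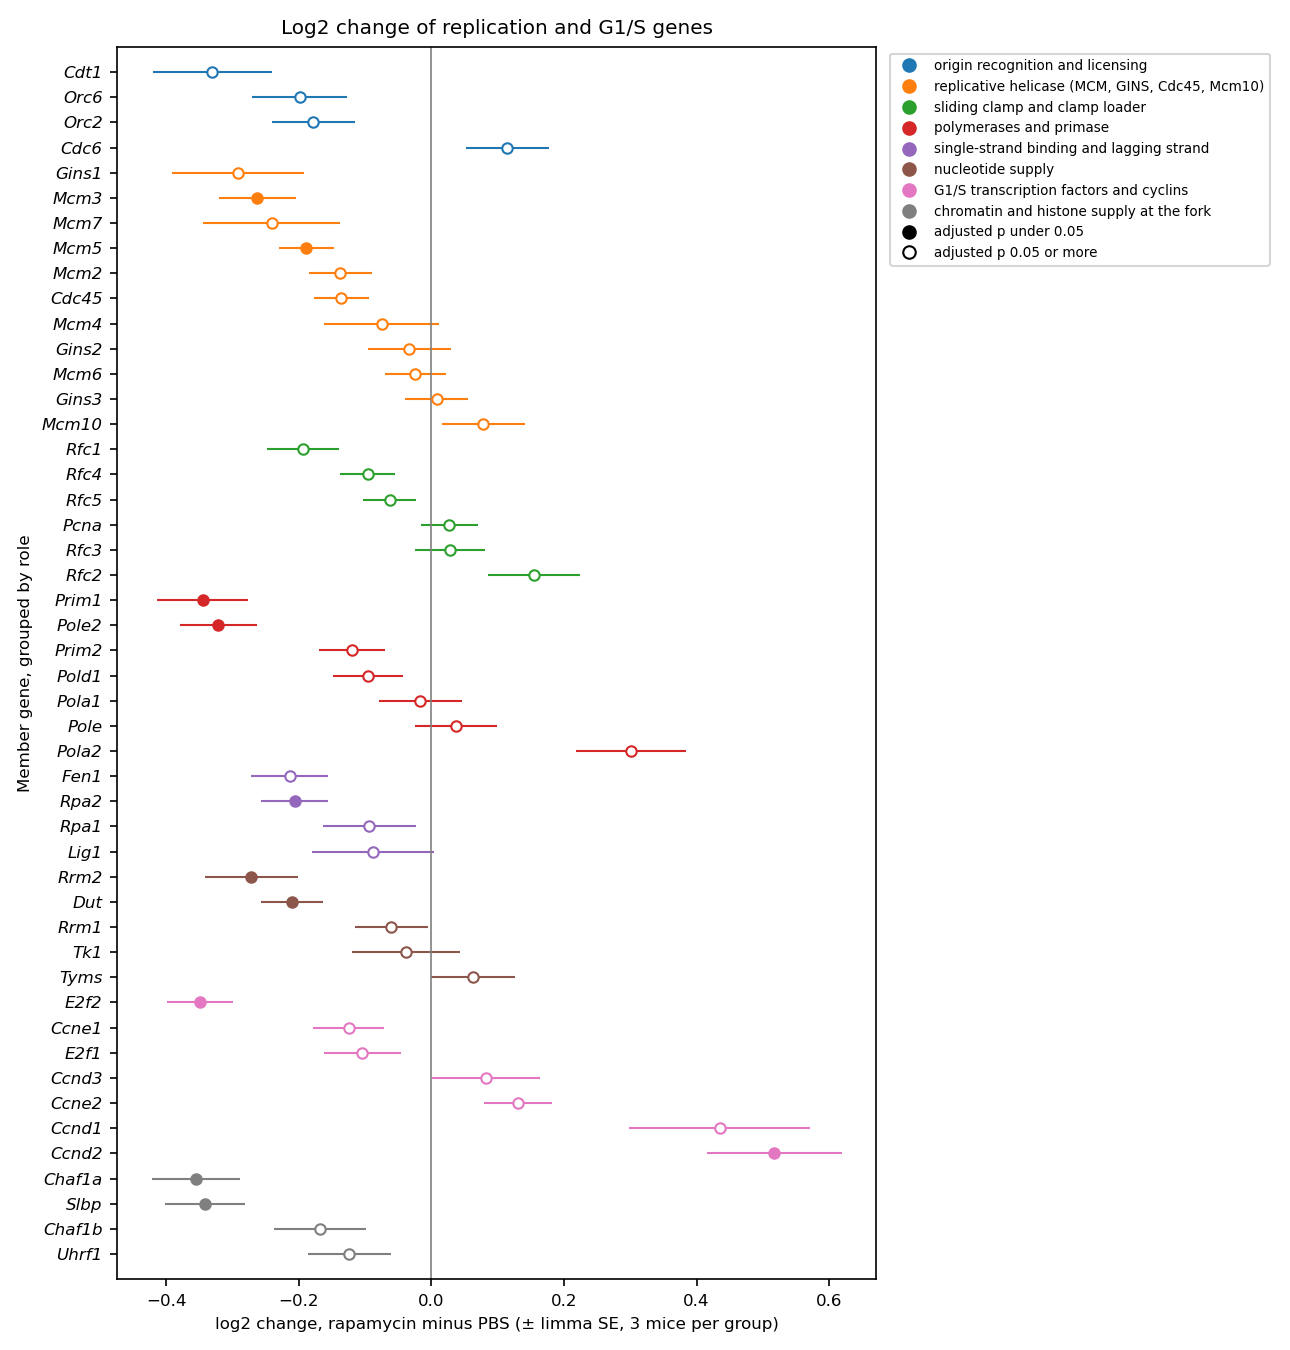
Log2 change (rapamycin minus PBS) of the 48 tested members on the horizontal axis, with limma's standard error as bars, grouped and coloured by role, 3 mice per group. Filled points passed an adjusted p of 0.05; 10 lie left of 0 and Ccnd2, at 0.52, lies right of it.

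These calls rested on all 6 arrays. With 1 array left out, the members called lower numbered 0 without PBS replicate 2 (0.437% of all genes), and E2f2 was the member called without PBS replicate 1 (2.99%) or PBS replicate 3 (1.74%). They were E2f2 and Slbp without rapamycin replicate 1 (1.58%), E2f2 and Pole2 without rapamycin replicate 2 (2.91%), and 6 members without rapamycin replicate 3 (5.55%). Ccnd2 was the member called higher without PBS replicate 1 (2.03% of all genes) or rapamycin replicate 3 (4.02%), Pola2 and Rfc2 were without rapamycin replicate 2 (2.19%), and none was when PBS replicate 2 (0.372%) was left out, nor for PBS replicate 3 (1.17%) or for rapamycin replicate 1 (1.06%). The count of all genes called fell as well in these fits, which had fewer samples, and was 113 without PBS replicate 2 against 1584. At an unadjusted p under 0.05 limma had 20 of 48 members lower and 4 higher with all arrays. Over all 13965 genes tested these counts were 2363 and 1578. With an array left out the members at that p were 14 (rapamycin replicate 2) to 20 (PBS replicate 2) lower and 3 or 4 higher. Scaling mattered too. Of all calls, 61.0% were lower with the values as deposited, 71.0% with the medians of all probe sets aligned, 50.7% with those of named probe sets aligned and 44.7% with those of the tested genes aligned. The members called lower were then 10, 14 (9.6% of all genes), 6 (5.32%) and 6 (5.06%), and those called higher 1, 1 (3.92%), 1 (5.17%) and 2 (6.27%).

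Of the 11 helicase members, 2 fell, where 6.92% of all genes tested were called lower. Mcm3, a subunit of the ring, stood at log2 8.37, 8.22 and 8.33 in PBS replicates 1 to 3 and at 8.08, 8.08 and 7.97 in rapamycin replicates 1 to 3. Mcm5, its neighbour in the ring, stood at 8.68, 8.67 and 8.71 with PBS and at 8.51, 8.47 and 8.51 with rapamycin. Both genes had every rapamycin value below every PBS value, as did 19.4% of all genes tested. Mcm3 changed by -0.26 ± 0.06 (SE, limma adjusted p 0.0334) and Mcm5 by -0.19 ± 0.04 (0.0333). With an array left out the adjusted p ran from 0.0639 to 0.101 for Mcm3 and from 0.0505 to 0.0901 for Mcm5, and Mcm5 was also not called with the medians of named probe sets or tested genes aligned. The other 4 subunits of the ring did not pass the test: Mcm7 differed by -0.24 ± 0.10, Mcm2 by -0.14 ± 0.05, Mcm4 by -0.075 ± 0.086 and Mcm6 by -0.024 ± 0.047. For Mcm6 the 95% interval of the log2 change ran from -0.13 to 0.085. Mcm7 was low on 1 array, with 8.29 in rapamycin replicate 2 against 8.64 in the other 2. Among the factors that activate the ring, Cdc45 differed by -0.14 ± 0.04 with groups that did not overlap (limma adjusted p 0.0796), and the GINS subunits Gins1, Gins2 and Gins3 by -0.29 ± 0.10, -0.033 ± 0.063 and 0.0077 ± 0.048. Mcm10, which acts with them at the start of unwinding, differed by 0.078 ± 0.062.

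None of the 4 licensing members tested passed limma's threshold. At an unadjusted p under 0.05, where 2363 of all 13965 genes tested were lower, 3 of these members were lower. Cdt1, which brings the ring to origins, had the largest difference among them, with log2 7.91, 7.87 and 8.07 in the PBS mice and 7.72, 7.44 and 7.70 in the rapamycin mice (-0.33 ± 0.09, adjusted p 0.0582). All 3 rapamycin values lay below the PBS values, as for 19.4% of all genes tested. Cdt1 was called with the medians of all probe sets aligned or with the brightness threshold at the 50th percentile. The origin subunits Orc2 and Orc6 differed by -0.18 ± 0.06 and -0.20 ± 0.07, and Cdc6, the loader's ATPase, by 0.11 ± 0.06. Orc1 was the dim member: it read log2 4.47, 4.53 and 4.51 with PBS and 4.43 on each rapamycin array, under the brightness threshold of 4.72. In the fit of all 19938 genes, where 3.87% were called lower, Orc1 differed by -0.073 ± 0.035 (limma adjusted p 0.280).

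Among the 7 polymerase and primase members, Prim1 and Pole2 fell, where 6.92% of all genes tested were called lower. Values stood on both sides of 0 within a single complex. Prim1, the catalytic subunit of primase, stood at log2 8.01, 7.92 and 7.99 with PBS and at 7.61, 7.52 and 7.76 with rapamycin. Pole2, the accessory subunit of the leading-strand polymerase epsilon, stood at 7.05, 7.11 and 7.04 and then at 6.80, 6.80 and 6.64. In both genes every rapamycin mouse was below every PBS mouse, as for 19.4% of all genes tested. Prim1 changed by -0.35 ± 0.07 (limma adjusted p 0.0242, and 0.0189 to 0.0983 with an array left out) and Pole2 by -0.32 ± 0.06 (0.0185, and 0.0287 to 0.0824). Pola2, the second subunit of polymerase alpha, read 7.71, 7.57 and 7.55 with PBS and 8.004, 7.74 and 7.997 with rapamycin, which is the opposite order. Its difference of 0.30 ± 0.08 did not pass the threshold (limma adjusted p 0.0613) but did with the medians of tested genes aligned, after quantile normalization again, with array weights, with the stricter brightness threshold and without rapamycin replicate 2 (0.0327). The catalytic subunits Pola1 (-0.017 ± 0.062), Pold1 (-0.096 ± 0.054) and Pole (0.037 ± 0.061) and the primase subunit Prim2 (-0.12 ± 0.05) did not pass the test. Thus the accessory subunit of polymerase epsilon was called lower while its catalytic subunit had an interval from -0.11 to 0.18; the difference between these changes was not tested.

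The clamp and its loader gave 0 calls among 6 members with limma. At an unadjusted p under 0.05, where 2363 of all 13965 genes tested were lower, 1 member, Rfc1, was lower. Pcna, the clamp itself, stood at log2 10.45, 10.45 and 10.42 with PBS and at 10.42, 10.49 and 10.48 with rapamycin, so the groups overlapped and the log2 change of 0.027 ± 0.043 had an interval from -0.074 to 0.13. The other probe set of Pcna gave 0.026 ± 0.044, and RefSeq lists 2 Pcna pseudogenes, so that either probe set can hold signal from several loci. Rfc1, the large loader subunit, differed by -0.19 ± 0.05 (limma adjusted p 0.0617), and Rfc4, Rfc5 and Rfc3 by -0.096 ± 0.042, -0.063 ± 0.040 and 0.028 ± 0.053. Rfc2 read 8.18 on each PBS array and in rapamycin replicate 2, and 8.41 in the other 2 rapamycin arrays. That pattern gave 0.15 ± 0.07 (limma adjusted p 0.196), and a call (0.0443) without rapamycin replicate 2.

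Of the 4 members for single-strand binding and the lagging strand, 1 fell, where 6.92% of all genes tested were called lower. This was Rpa2, a subunit of the protein that coats single-stranded DNA. It read log2 7.49, 7.46 and 7.47 in the PBS mice and 7.27, 7.19 and 7.34 in the rapamycin mice. The groups stood apart, with rapamycin below, as for 19.4% of all genes tested. The change was -0.21 ± 0.05 (limma adjusted p 0.0433, and 0.0365 to 0.122 with an array left out), and it was not called with no brightness filter or with the medians of named probe sets or tested genes aligned. Rpa1, the large subunit, differed by -0.093 ± 0.070. Fen1, the nuclease that trims the flaps of Okazaki fragments, gave -0.21 ± 0.06 (limma adjusted p 0.0566) with groups that did not overlap, and Lig1, which seals the nicks, gave -0.088 ± 0.092.

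Of the 5 members that supply nucleotides, Rrm2 and Dut fell, where 6.92% of all genes tested were called lower. Rrm2, the S-phase subunit of ribonucleotide reductase, stood at log2 9.98, 9.86 and 9.90 with PBS and at 9.60, 9.55 and 9.78 with rapamycin (-0.27 ± 0.07, limma adjusted p 0.0492). Dut, which removes dUTP, stood at 7.31, 7.25 and 7.24 and then at 7.11, 7.04 and 7.02 (-0.21 ± 0.05, 0.0336). Neither gene had a rapamycin value above a PBS value, and 19.4% of all genes tested had every rapamycin array below every PBS array. The call of Rrm2 was the closest to the threshold and ranged from 0.0249 to 0.163 with an array left out, and that of Dut from 0.0631 to 0.0952. Neither was called with the medians of named probe sets or tested genes aligned, nor Rrm2 with no brightness filter. The constitutive partner Rrm1 differed by -0.061 ± 0.055, the thymidine kinase Tk1 by -0.039 ± 0.082 and thymidylate synthase, Tyms, by 0.063 ± 0.064. The second probe set of Tk1 gave 0.056 ± 0.045, and RefSeq lists a pseudogene of Tyms.

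Genes of chromatin and histone supply at the fork had the lowest median log2 change of the 8 roles, -0.25, and 2 of 4 fell. All genes tested had a median of -0.017, and 6.92% were called lower. Differences between roles were not tested. Chaf1a, the large subunit of the factor that places histones behind the fork, read log2 7.11, 7.11 and 7.29 with PBS and 6.90, 6.78 and 6.77 with rapamycin. Slbp, which binds histone mRNAs, read 8.90, 8.80 and 8.82 and then 8.59, 8.49 and 8.41. Both genes had groups that did not overlap, with rapamycin below, as for 19.4% of all genes tested. Chaf1a changed by -0.36 ± 0.07 (limma adjusted p 0.0211, and 0.0527 to 0.0693 with an array left out), which is 1.28-fold lower, and Slbp by -0.34 ± 0.06 (0.0173, and 0.0348 to 0.0660). The dimmer probe set of Slbp gave -0.12 ± 0.06 (limma adjusted p 0.265 over all named probe sets), and the mean of its probe sets was called at -0.23 (0.0498). The partner subunit Chaf1b differed by -0.17 ± 0.07 and Uhrf1, which guides maintenance methylation, by -0.12 ± 0.06.

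The 7 members that regulate the G1/S step went both ways, as 1 fell and 1 rose. All genes tested gave 6.92% called lower and 4.42% higher. E2f2, an E2F factor that activates these genes, fell: it stood at log2 8.78, 8.91 and 8.79 with PBS and at 8.46, 8.49 and 8.49 with rapamycin. The rapamycin mice lay close together, and the gap between the groups was wider than the spread of either. The change was -0.35 ± 0.05 (limma adjusted p 0.00971), or 1.27-fold lower, and E2f2 kept its call in 5 of 6 fits with an array left out, with 0.0504 without PBS replicate 2. E2f1 differed by -0.10 ± 0.06 (limma adjusted p 0.283). The D-type cyclin Ccnd2 rose, from 8.63, 8.39 and 8.48 to 9.12, 9.12 and 8.81. Every rapamycin mouse was above every PBS mouse, as for 12.6% of all genes tested. The change of 0.52 ± 0.10 is 1.43-fold (limma adjusted p 0.0235). The call of Ccnd2 held with PBS replicate 1 left out (0.0488) and with rapamycin replicate 3 left out (0.0180). Its adjusted p was 0.101 when PBS replicate 2 was left out, 0.0861 for PBS replicate 3, 0.103 for rapamycin replicate 1 and 0.0722 for rapamycin replicate 2. Ccnd1 read 6.83, 6.86 and 6.41 with PBS and 7.23, 7.24 and 6.93 with rapamycin, again with no overlap. Its difference of 0.43 ± 0.14 did not pass the test (limma adjusted p 0.0852). Ccnd3 gave 0.082 ± 0.082 from a probe set whose gene has a pseudogene in RefSeq. The E-type cyclins stood on opposite sides of 0, Ccne1 at -0.12 ± 0.05 and Ccne2 at 0.13 ± 0.05, and neither passed the test.

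**Figure D2:**
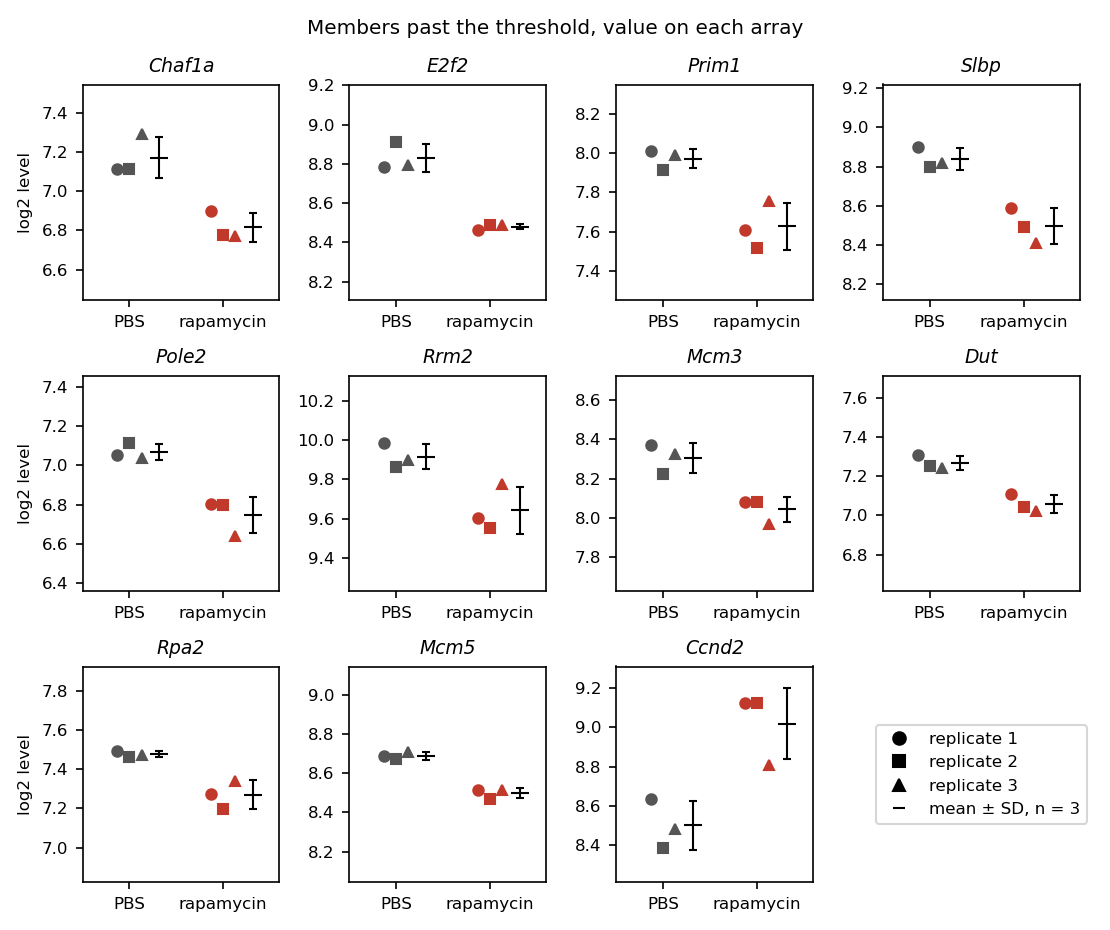
Log2 level of the 11 called members on each array, with PBS in grey and rapamycin in red, symbols for the replicate and a bar for mean ± SD (n = 3); every panel spans the same log2 range. The groups do not overlap in any panel, and Ccnd2 is the one that is higher with rapamycin. Over all genes tested, every rapamycin array lay below every PBS array for 19.4% and above for 12.6%.

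Arrays of a group differed in these genes as a set, and with 1 array per mouse, mouse and array cannot be told apart. PBS replicate 1 was the highest of the 3 PBS arrays for 28 of 48 members (58.3%), while it was highest for 34.4% of all genes. PBS replicate 2 was the lowest for 24 members (50%, against 33.1% of all genes), and rapamycin replicate 2 was the lowest of its group for 25 (52.1%, against 35.9%). The members' mean deviation from the mean of their own group was 0.041 (log2) in PBS replicate 1 and -0.035 in rapamycin replicate 2. On a different measure, the median of the members minus their PBS means was -0.10, -0.13 and -0.098 in rapamycin replicates 1 to 3. It was 0.046, -0.035 and -0.018 in the PBS arrays, so each rapamycin array lay below each PBS array. Over all genes this median was -0.018, -0.0068 and -0.015 in the rapamycin arrays and -0.0036, 0 and 0.0038 in the PBS arrays.

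**Figure D3:**
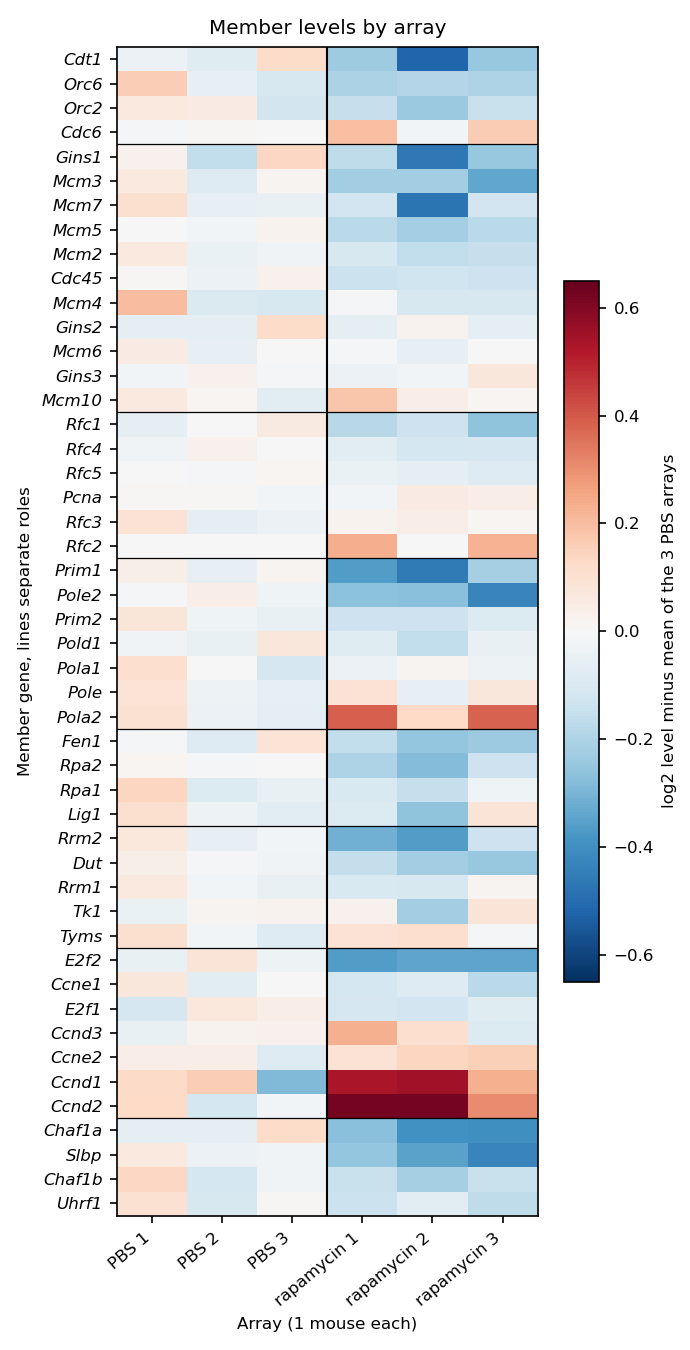
Level of each tested member (rows, grouped by role) on each array (columns), as log2 minus the mean of the 3 PBS arrays; blue is lower and red higher. Most rows are blue across the rapamycin arrays, and Ccnd1, Ccnd2 and Pola2 are the deepest red.

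Other genes of replication and of the cell cycle were read from the same fit. Of 53 further replication genes listed, 50 were tested, and 5 fell and 3 rose, at a median log2 change of -0.048. Among all genes tested 6.92% were called lower and 4.42% higher, at a median of -0.017. Usp1, a deubiquitinase that acts on Pcna, changed by -0.34 ± 0.06 (limma adjusted p 0.0155), the polymerase epsilon subunit Pole4 by -0.30 ± 0.06 (0.0211) and Rrm2b, the p53-induced subunit of ribonucleotide reductase, by -0.32 ± 0.06 (0.0223). Rpa3, the smallest RPA subunit, rose by 0.27 ± 0.05 (0.0207), but its dimmer probe set gave 0.061 ± 0.10, and the mean of both was not called (0.151). Only the 4 genes with the largest moderated statistic are named here. The other genes of this list that rose had 1 probe set each. With PBS replicate 2 left out none of these 8 calls held in limma, and with each other array left out 0 to 3 genes fell and 0 to 3 rose. With each of those other arrays left out 1.58% to 5.55% of all genes were called lower and 1.06% to 4.02% higher.

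Of 32 tested regulators of the G1/S step, 3 fell and 3 rose, at a median log2 change of 0.0059. The shares of all genes tested were 6.92% lower and 4.42% higher. Tfdp1, the partner with which E2F factors bind DNA, stood at log2 10.47, 10.58 and 10.60 with PBS and at 9.93, 9.95 and 10.01 with rapamycin. No rapamycin value came near a PBS value, and the change of -0.59 ± 0.05 (limma adjusted p 0.00411) was called in each fit with an array left out (0.0139 to 0.0404). Its other probe set changed by -0.33 ± 0.06 (0.0155 over all named probe sets). Myc, a factor that drives growth and entry into the cycle, read 8.29, 7.88 and 7.90 with PBS and 8.95, 8.66 and 8.59 with rapamycin (0.71 ± 0.13, limma adjusted p 0.0209), and its adjusted p was 0.0943 when PBS replicate 2 was left out, 0.0826 for PBS replicate 3, 0.0812 for rapamycin replicate 1 and 0.0573 for rapamycin replicate 2. Lin37, a subunit of the DREAM complex that represses cell cycle genes, rose by 0.37 ± 0.06, and E2f4, an E2F of that complex, by 0.19 ± 0.05 (limma adjusted p 0.0136 and 0.0439). Cdk2, the kinase of the E-type cyclins, changed by -0.18 ± 0.04 and Cdc25a, the phosphatase that activates it, by -0.20 ± 0.05 (0.0407 and 0.0368). The calls of Cdk2 and Cdc25a were lost in each fit with an array left out and with the medians of named probe sets or tested genes aligned. Lin37 was lost without PBS replicate 2 (0.0687) or rapamycin replicate 1 (0.0623). E2f4 was lost with the medians of all probe sets aligned (0.0658) and when any array but rapamycin replicate 3 was left out (0.0977 to 0.127).

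Genes of the later cell cycle were also read. Of 29 tested genes of G2 and mitosis, 1 fell, the spindle factor Tpx2 (-0.22 ± 0.04, limma adjusted p 0.0195), and 0 rose, with a median log2 change of 0.015. All genes tested gave 6.92% lower and 4.42% higher. At an unadjusted p under 0.05 limma had 5 higher and 2 lower, where all 13965 genes gave 1578 and 2363. With the medians of named probe sets or tested genes aligned 2 rose (5.17% and 6.27% of all genes). All 3 rapamycin arrays lay above the PBS arrays for 7 of the 29 genes and below for 3, where all genes gave 12.6% and 19.4%. Tpx2 kept its call when PBS replicate 1 (0.0457) or rapamycin replicate 3 (0.0345) was left out, and its adjusted p was 0.0547 to 0.0710 with each other array left out. Whether the members and the mitotic genes differ in their change was not tested.

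**Figure D4:**
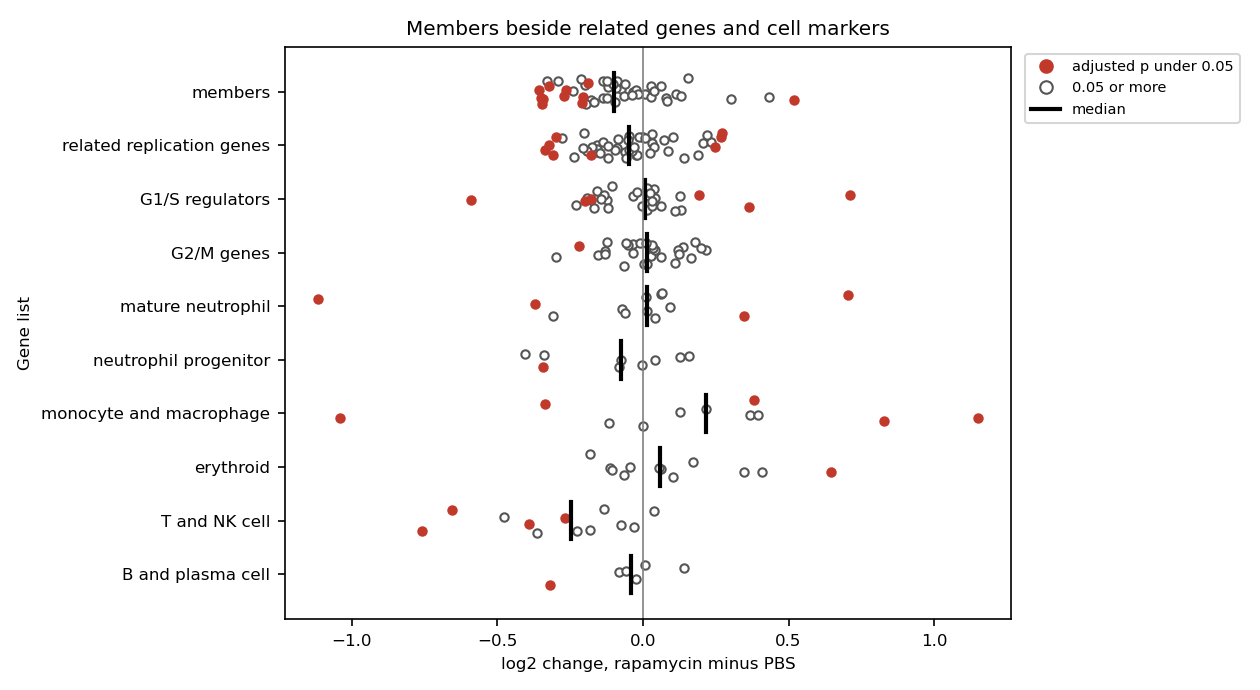
Log2 change (rapamycin minus PBS) of each tested gene, as points, for the members, for related gene lists and for markers of cell types; red points passed an adjusted p of 0.05 and the black bar is the median. The median of the members lies at -0.10, that of the mitotic genes at 0.015 and that of the T and NK cell genes at -0.25.

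Markers of the cells in the sort, and of those it can carry over, were set beside these values. Their counts of calls stand against 6.92% lower and 4.42% higher among all genes tested. Itgam, which encodes the CD11b used in the sort, read log2 12.31, 12.48 and 12.38 with PBS and 12.29, 12.30 and 12.22 with rapamycin, and all 13 mature neutrophil genes lay above the brightness threshold. Of these, Il1r2 rose by 0.70 ± 0.07 and Trem1 by 0.35 ± 0.09, while Cd101, a marker of late neutrophils, fell by 1.12 ± 0.22 and Mxd1 by 0.37 ± 0.08 (log2, SE, limma adjusted p 0.00463, 0.0467, 0.0237 and 0.0358). The falls of Cd101 and Mxd1 were not called when rapamycin replicate 1 or any PBS array was left out, and the rise of Trem1 was called only without rapamycin replicate 3 (0.0495, otherwise 0.0670 to 0.156). Neutrophil genes summed to 56710 to 60820 with PBS and 54540 to 60740 with rapamycin. Of 12 tested genes of T and NK cells 4 fell: Gzmb by 0.76 ± 0.11, Nkg7 by 0.66 ± 0.12, Cd3g by 0.39 ± 0.09 and Cd8a by 0.27 ± 0.06 (log2, SE). The linear signal summed over the 16 measured genes was 975 to 1087 in the PBS mice and 727 to 840 in the rapamycin mice, with no overlap. Nkg7, the brightest of the 16 (mean log2 8.52 with PBS and 7.86 with rapamycin), weighs most in this sum. The other 8 tested genes were not called, and Cd3d, Ncr1, Klrb1c and Gzma were under the brightness threshold. The calls of Gzmb, Nkg7, Cd3g and Cd8a were lost without PBS replicate 2 or PBS replicate 3. Nkg7 was also lost without PBS replicate 1 (limma adjusted p 0.0689). Cd3g was called only without PBS replicate 1 (0.04635), and Cd8a was lost in all 6 fits with an array left out (0.0590 to 0.111). The part of these genes in the lower values of the members was not tested. Of 9 tested genes of neutrophil progenitors, the dividing cells of that lineage, Gfi1 fell by 0.34 ± 0.07 (limma adjusted p 0.0274), a call lost in every fit with an array left out but that without rapamycin replicate 3. Their sum was 8479 to 8825 with PBS and 7988 to 9380 with rapamycin, so the groups overlapped. Of 12 tested erythroid genes, Slc4a1, the red cell anion exchanger, rose by 0.64 ± 0.09 (limma adjusted p 0.00876, and 0.0536 without PBS replicate 2), and the sum was 656 to 678 with PBS and 687 to 756 with rapamycin. Of 11 genes of monocytes and macrophages Cd14, Cd68 and Ms4a6c rose by 1.15, 0.83 and 0.38 and Mrc1 and Ccr2 fell by 1.04 and 0.34 (log2; limma adjusted p 0.00431, 0.00655, 0.0336, 0.00907 and 0.0409), with a sum of 7508 to 9261 against 10480 to 11700. With an array left out Cd14 was called in each of 6 fits. Cd68 was lost without PBS replicate 2 (0.0504), Mrc1 when PBS replicate 2 (0.0568) or rapamycin replicate 1 (0.0527) was left out, Ms4a6c in each fit but that without rapamycin replicate 2 (0.0328), and Ccr2 in all 6 (0.0557 to 0.140). Of 6 tested genes of B and plasma cells Cd79b fell by 0.32 ± 0.06 (limma adjusted p 0.0191), which was called with an array left out in 2 of 6 fits, and their sums overlapped (312 to 321 against 291 to 318). The part of these cell types in the members' values was not tested.

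The calls of the members were compared across settings. Without the brightness filter 8 were lower and 1 higher (3.87% and 2.45% of all genes), and with the threshold at the 50th percentile 13 and 2 (10.8% and 7.13%). After quantile normalization again 10 were lower and 2 higher (7.27% and 5.41%), with array weights 10 and 2 (7.95% and 5.21%), with a trended robust variance 10 and 1 (7.35% and 4.93%) and with the mean of probe sets 10 and 1 (6.92% and 4.5%). E2f2, Chaf1a, Prim1, Slbp, Pole2, Mcm3 and Ccnd2 were called under each of the settings that kept all 6 arrays. Dut, Rrm2, Rpa2 and Mcm5 were lost under at least 2 of them. E2f2 was the member called most often with an array left out, in 5 of 6 fits.

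**Figure D5:**
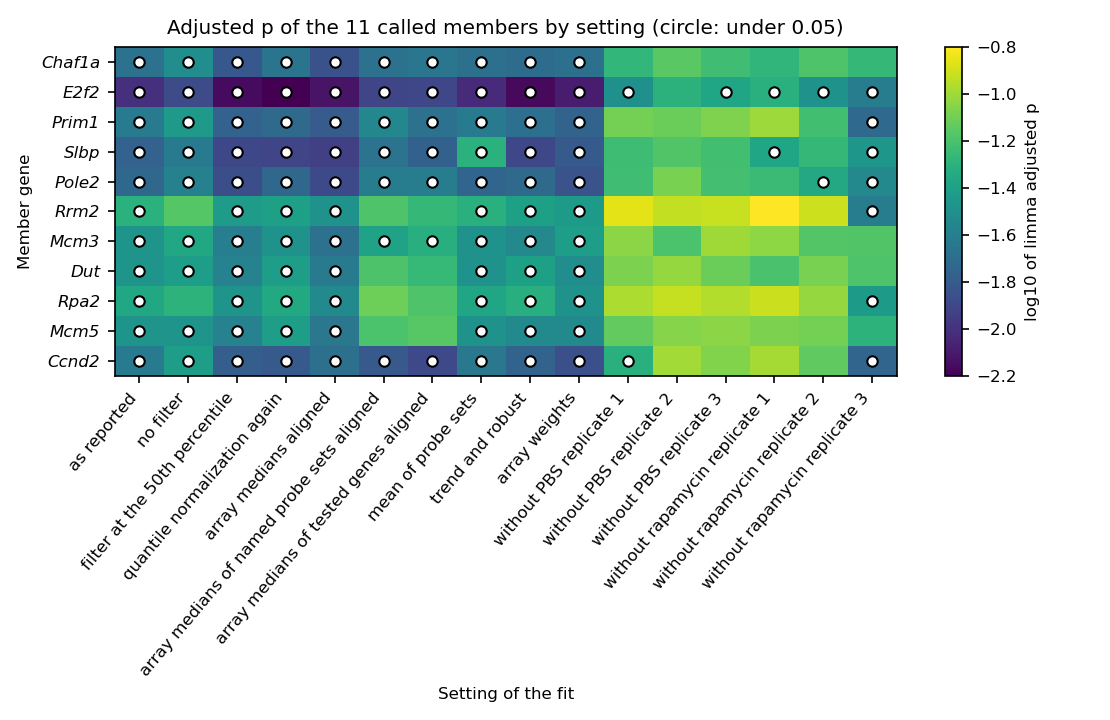
Adjusted p of the 11 called members (rows) as reported and under other settings (columns), coloured by its log10; a circle marks an adjusted p under 0.05. Circles fill most of the columns that keep all 6 arrays, and thin out on the right, where 1 array is left out and the column without PBS replicate 2 has none.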

How the data were processed

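Total RNA was labelled by a whole-transcript sense target assay and hybridised to arrays, 1 for each mouse, per the labels' protocols. What the authors deposited is log2 expression of each probe set, made with RMA in Affymetrix Expression Console per the submitters' processing notes; their versions and the genome build are not given in the sources used here. Such normalization equalises the arrays' distributions, so a shift of most genes would be removed. Of 35556 probe sets, 21789 had 1 symbol in the platform annotation of 2016. Genes whose mean was under the 30th percentile (log2 4.72) were set aside, which left 13965. Rapamycin was set against PBS by limma 3.58.1 with R 4.3.3 (lmFit, eBayes, 2-sided, Benjamini-Hochberg over all genes tested), which was tested on simulated data. Figures used matplotlib 3.10.9. All members may be named; related genes were named where called, or the 4 with the largest moderated statistic where over 6 or none were. The members and lists were chosen with earlier results of these data known. Alternatives were other brightness thresholds, scalings, probe set means, variance models, array weights, a replicate block and leaving out each array. The labels call the mice biological replicates; at most 6.99% of values were identical between 2 arrays. Array batches are not given in the sources used here.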

Additional observations from a re-analysis of the deposited data

How the results depend on the processing

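The count of members called lower (10) was 6 with the array medians of named probe sets or of tested genes aligned, settings chosen after seeing the data, and 0 to 6 with an array left out. The count called higher (1) was 2 with the brightness threshold at the 50th percentile, after quantile normalization again, with the medians of tested genes aligned and with array weights, 3 with the replicate block, and 0 to 2 with an array left out. All genes called (1584) numbered 113 to 1336 with an array left out. Under the other settings run these counts stayed within 1.5 times. The replicate block called 10 members lower (6.61% of all genes; 5.5% higher), 8 of them shared with the fit without it, left out Mcm5 and Rpa2 and added Cdt1 (limma adjusted p 0.0253) and Gins1 (0.0272), and its higher calls were Ccnd1 (0.00893), Ccnd2 (0.0157) and Pola2 (0.0371); same-numbered mice gave correlations of their deviations of 0.26, 0.010 and 0.046, so the numbers were not taken as pairs. Values near 0 changed sign without being called: Gins3 was -0.016 with the medians of all probe sets aligned and -0.0046 with array weights, Pcna -0.0145 and Pola1 0.0034 after quantile normalization again, Pola1 0.0064 and 0.015 with the medians of named probe sets and tested genes aligned, Mcm6 0.0075 with the latter, and Tk1 0.0086 with the mean of its probe sets. With an array left out the log2 change ran from -0.13 to 0.024 for Mcm4, -0.051 to 0.0019 for Mcm6, -0.063 to 0.027 for Gins2, -0.026 to 0.030 for Gins3, -0.0004 to 0.075 for Rfc3, -0.071 to 0.037 for Pola1 and -0.099 to 0.055 for Tk1. The cause was not tested, beyond the lower number of samples when an array was left out. Signal limits Orc1, which lay under the brightness threshold.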

Other observations

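In a fit of all 15252 named probe sets above the brightness threshold, in which 5.4% were called higher and which was chosen after seeing the data, some cell cycle genes had probe sets that disagreed. Cdkn1b, which encodes the CDK inhibitor p27, gave -0.0017 ± 0.058 (log2 change, SE) on its brighter probe set. Its other probe set read log2 7.20, 7.10 and 7.05 with PBS and 7.73, 7.85 and 7.73 with rapamycin, a change of 0.66 ± 0.06 (limma adjusted p 0.00345). Top2a, the topoisomerase of dividing cells, gave 0.072 ± 0.054 on its brighter probe set. The other read 9.17, 8.96 and 8.72 with PBS and 9.41, 9.41 and 9.36 with rapamycin, a change of 0.45 ± 0.10 (limma adjusted p 0.0350). Both genes were chosen after their values were seen, and which part of the transcript each probe set reads was not examined.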
